A study of Panagrellus redivivus with 189 samples.

Results

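A set of 99 feature rows of the *Panagrellus redivivus* count table was abundant in embryos of 1 to 3 cells and low in most embryos of 6 to 10 cells. *P. redivivus* is a free-living nematode, and its blastomeres were separated by hand and sequenced one by one with CEL-Seq2, a 3′-end RNA sequencing method with a barcode per cell. The rows were chosen from measured values. Counts were first freed of 6 dominant rows (R789, R955, R956, R1147, R1149 and R1177, where R stands for the number of a row in the table) and scaled to a total of 1000000 (CPM), so a CPM is a share of the counts left. A row was taken if the summed libraries with sample numbers 1 to 9 gave at least 400 CPM and the summed libraries 201 to 250 gave at most 25% of that. Of 1566 rows considered, 236 had at least 400 CPM early and 99 of those met both conditions, and the rest are called the other early rows. All 99 had counts in both 1-cell embryos, but the files hold no measure of parental origin, so "maternal" is a working name.

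In animal embryos the first divisions run on RNA and protein that the mother placed in the egg. Later these maternal transcripts are degraded while transcription from the embryo's own genome starts, a handover known as the maternal-to-zygotic transition. In the nematode *Caenorhabditis elegans*, the germline precursors P1 to P4 are transcriptionally repressed and keep some maternal RNAs that somatic blastomeres lose. In that species the zygote, P0, divides into AB at the anterior and P1 at the posterior. Nothing in the files pairs a count row with a gene model, so rows are named here by their number, and no gene function is given. Since transcript and tag properties of the rows are unknown, levels are compared within a row and not between rows.

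The groups, from earliest to latest, were 5 embryos of 1 to 3 cells (9 blastomere libraries), 9 of 6 to 10 cells (57), 4 of 12 to 20 cells (50) and 2 gastrulae, 1 early and 1 late (73). The numbers of the samples run from 1 to 39, called the lower series here, and from 201 to 350, the higher series, and this split is a candidate batch. All 1-3 cell embryos are in the lower series, with 8-cell embryo 1, 12-cell embryo 1 and the 14-cell embryo, and all other embryos are in the higher series. The rule compared 1-3 cell embryos of the lower series with 8 embryos of 6 to 10 cells of the higher series, so its contrast crosses stage and series. The 5 embryos of samples 10 to 39 and 251 to 277 and both gastrulae were held out of the rule. The labels give no strain, genotype or treatment. Several embryos have fewer libraries than cells, and 21 of 40 late gastrula libraries carry a digit in the title whose meaning is not given. Libraries of 1 embryo share their source, so groups were compared over embryo sums.

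Counts outside the 6 dominant rows ranged from 7117 to 25575 per 1-3 cell embryo, from 8981 to 11539 in the later lower-series embryos and from 4992 to 380620 in the higher series. The 6 rows held a median of 72.3% of a lower-series library and 5.09% of a higher-series library. Single libraries held between 14 and 44125 counts outside these rows, and 24 held fewer than 1000. Since CPM is a share, a smaller amount of a transcript and dilution by other transcripts cannot be told apart in any comparison below.

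Outside the 6 dominant rows, the 99 rows together made up most of the counts of every 1-3 cell embryo. Their share was 60.3% and 60.6% in the 2 1-cell embryos, 62.3% in the 2-cell pair with named cells, 63.1% in the 2-cell pair with numbered cells and 59.9% in the 3-cell embryo. In the higher series it was 12.8% in the 6-cell and 6.05% in the 7-cell embryo. The 8-cell embryos 2 to 5 had 14.1%, 13.2%, 6.26% and 7.33%, and the 9-cell and 10-cell embryos 4.61% and 4.35%. These values chose the rows, and they are given as a description. With the 6 dominant rows in the totals the share was lower, 30.1% to 41.2% at 1 to 3 cells. The 6-cell embryo and 8-cell embryos 2 and 3 kept larger shares than the other 5 embryos the rule used.

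The held-out 8-cell embryo 1 went against the working name, with 52.8% of its counts in the 99 rows (95% exact binomial interval 51.8 to 53.7), or 18.3% with the 6 dominant rows in the total. The value of 52.8% lies below the 5 embryos of 1 to 3 cells and above every other embryo of 6 or more cells. The later held-out embryos were low in both series. In the lower series 12-cell embryo 1 had 7.81% and the 14-cell embryo 6.41%, while of the higher series 12-cell embryo 2 had 6.51% and the 20-cell embryo 7.30%. Gastrulae had 6.34% (early) and 8.08% (late). Intervals and floors cover counting error only.

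**Figure D1:**
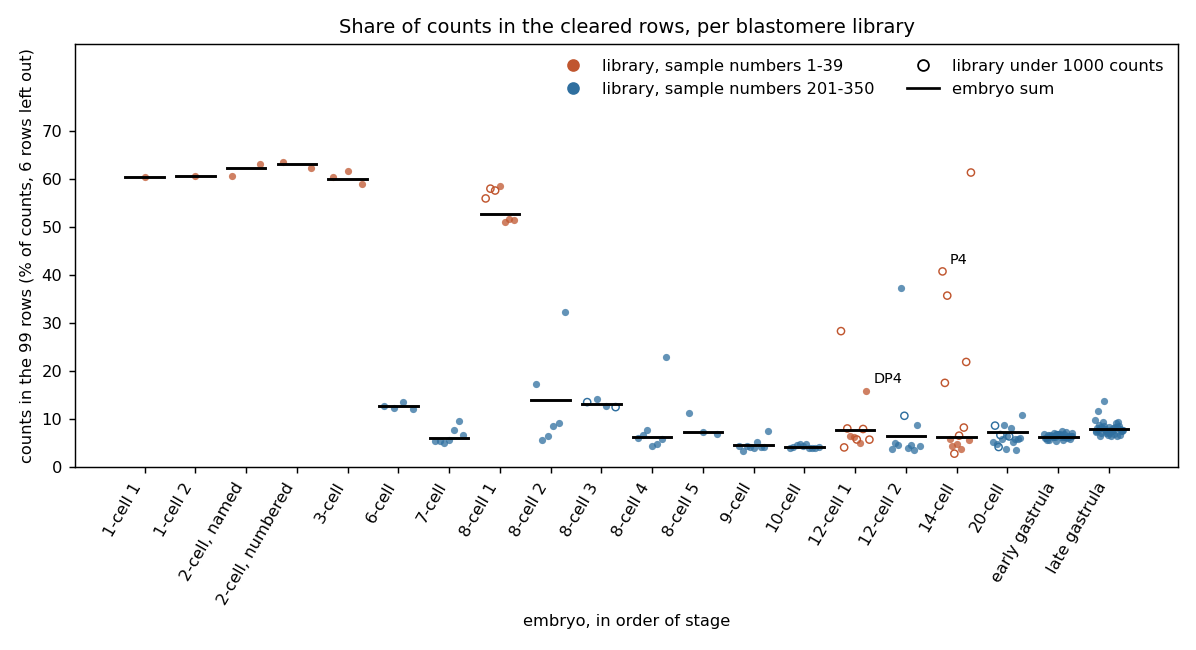
Share of counts in the 99 rows (y axis, percent of counts outside the 6 dominant rows) for each blastomere library (points) and for the sum of each embryo (black lines), with embryos in order of stage and open points for libraries under 1000 counts. The 7 libraries of 8-cell embryo 1 sit between 51.1% and 58.4%, next to the 1-3 cell libraries, and the embryo sums of all other embryos from 6 cells on lie at or below 14.1%.

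The other early rows, which by the rule had more than 25% of their early level in the 8 higher-series embryos of 6 to 10 cells, held 36.9% of counts in the summed 1-3 cell embryos, 47.5% in the 8 higher-series embryos of 6 to 10 cells and 57.2% in gastrula. Rows under 400 CPM early held 2.29% of the counts at 1 to 3 cells, 45.3% in those 8 embryos and 35.2% in gastrula. In 8-cell embryo 1 they held 8.18%.

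Row by row, the early level was regained in few of the later held-out embryos. A row was counted as cleared if its CPM was at or below 25% of its 1-3 cell level. In the summed 12- and 14-cell embryos of the lower series 93 of 99 rows met this, where 47.9% of all 236 early rows did and 14.6% of the other early rows. In the summed 12- and 20-cell embryos of the higher series it was 88 of 99 (39.0% of the 236, 2.92% of the others), and 86 rows met it in both series. In gastrula it was 70 of 99 (36.0% of the 236, 10.9% of the others). The 99 rows are part of the 236 and were chosen for low values at 6 to 10 cells, so these counts describe how far that choice carried over, with no test. The median row stood at 8.97%, 12.7% and 13.9% of its 1-3 cell level in these sums, beside 80.1%, 113.5% and 114.2% for the others.

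In 8-cell embryo 1 only 17 of 99 rows were at or below 25% of the early level, where 19.9% of the 236 early rows were. A further 14 rows lay between 25% and 50%, 36 between 50% and 100%, and 32 at or above the early level. The median was 73.5% for the 99 rows and 76.1% for the others, so the 2 sets were alike in this embryo. Between embryos the groups separated for most rows. All 5 embryos of 1 to 3 cells lay above all 4 embryos of 12 to 20 cells for 89 of 99 rows, against 44.1% of the 236. They lay above both lower-series embryos of 12 and 14 cells for 94 rows, against 51.7% of the 236. For the contrast of the rule, with the 8 higher-series embryos, the count was 86 rows (41.9% of the 236), a result of the choice. The 1-3 cell values in the other 2 counts also chose the rows, and the 236 include the 99. Those counts are thus partly set by the choice too, and they are given as a description.

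**Figure D2:**
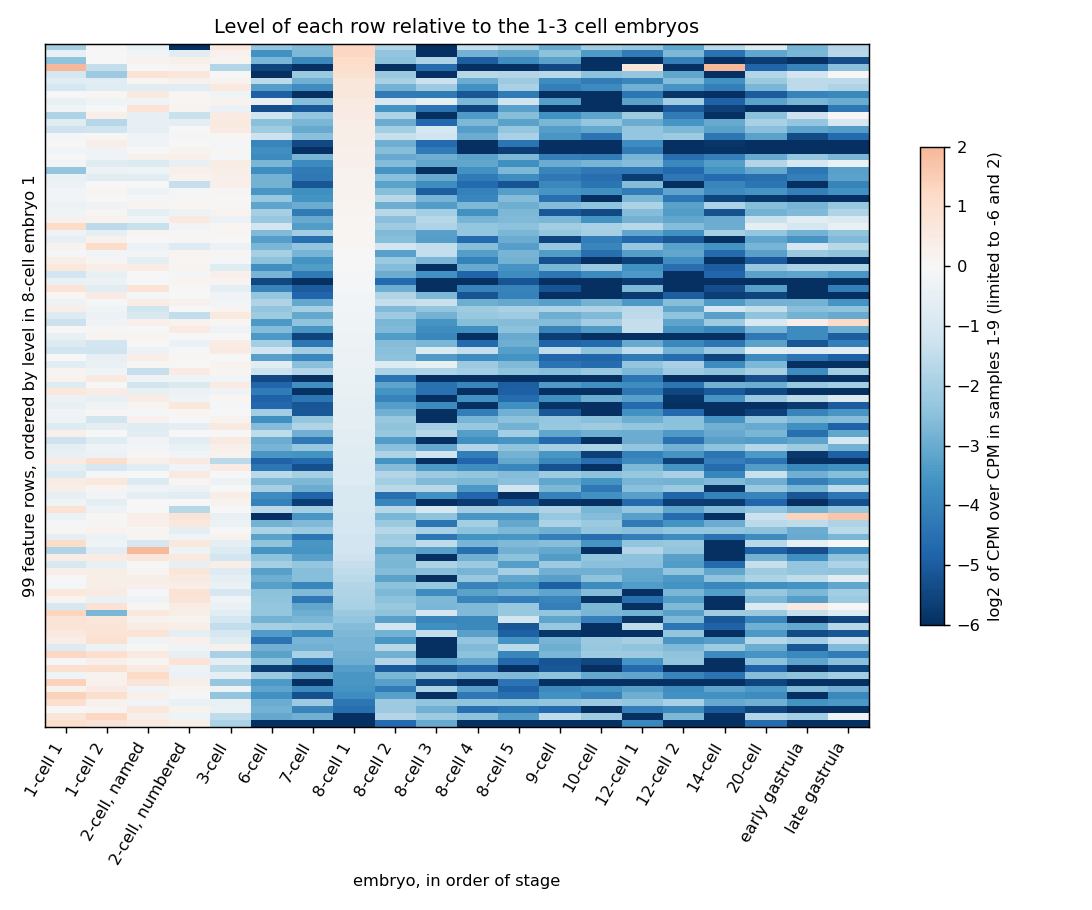
CPM of each of the 99 rows (y axis, ordered by level in 8-cell embryo 1) in each of the 20 embryos (x axis, by stage), as log2 of the ratio to the summed 1-3 cell embryos, limited to -6 and 2. The column of 8-cell embryo 1 is pale for most rows and blue for the 17 at the bottom, while the columns of 12 or more cells are blue for most rows.

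The 2 rows with the highest early CPM were R36 and 1219. R36 had 39492 and 47244 CPM in the 1-cell embryos, 65337 and 62428 CPM in the 2-cell pairs and 73666 CPM in the 3-cell embryo. Its lowest, median and highest values over the 9 embryos of 6 to 10 cells were 2535, 13899 and 48878 CPM, and the highest was 8-cell embryo 1. It had 12137, 16483, 4599 and 9551 CPM in 12-cell embryos 1 and 2, the 14-cell and the 20-cell embryo, and 379.8 and 210.2 CPM in the early and late gastrula. The 1-3 cell and the 6-10 cell embryos overlapped for this row, since the 6-cell embryo (40444 CPM) and 8-cell embryo 3 (46074 CPM) of the higher series lay above the lowest 1-cell embryo. Both gastrulae lay below every other embryo.

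R1219 kept a plateau after its early level. It had between 35487 and 59576 CPM in the 1-3 cell embryos and 39691 CPM in 8-cell embryo 1. The other 8 embryos of 6 to 10 cells had 4553 to 17228 CPM. In the 12-20 cell embryos it had 4120, 7602, 4238 and 6269 CPM and in the gastrulae 6266 and 3744 CPM, so these groups overlapped.

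R486 to R489 were the longest run of neighbouring rows, with R486 named by its low level at 12 to 20 cells and R487 by its low level at 6 to 10 cells. The place of a row in the table may not be its place in the genome. R486 averaged 37587 ± 4492 CPM in the 1-3 cell embryos (SD, n = 5) and had 48011 CPM in 8-cell embryo 1. In the other 6-10 cell embryos it had 55.3 to 6558 CPM. It had 2116, 309, 631 and 302 CPM at 12 to 20 cells, in the order 12-cell embryos 1 and 2, 14-cell and 20-cell embryo, and 0 and 36.8 CPM in the gastrulae. R487 had 1923 to 3271 CPM in the 1-3 cell embryos, 1733 CPM in 8-cell embryo 1 and 0 to 109.4 CPM in the other 8 embryos of 6 to 10 cells. It had 1 count in 12-cell embryo 1, 8 in the 20-cell embryo, 1 in the late gastrula and 0 in 12-cell embryo 2, the 14-cell embryo and the early gastrula. R488 and R489, looked at after their values were seen, were at 18164 and 15342 CPM at 1 to 3 cells and at 26.5 and 7.57 CPM in gastrula. In all, 29 of the 99 rows had another of them in an adjacent row. Of the other early rows, the larger set, 44 had another such row adjacent, so adjacency was not particular to the 99. A member row had a gastrula level of at most 1% of the early level in 10 of 99 cases, R36 and R486 to R489 among them. The same count was not taken over the other early rows, so it cannot be read as particular to the 99.

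**Figure D3:**
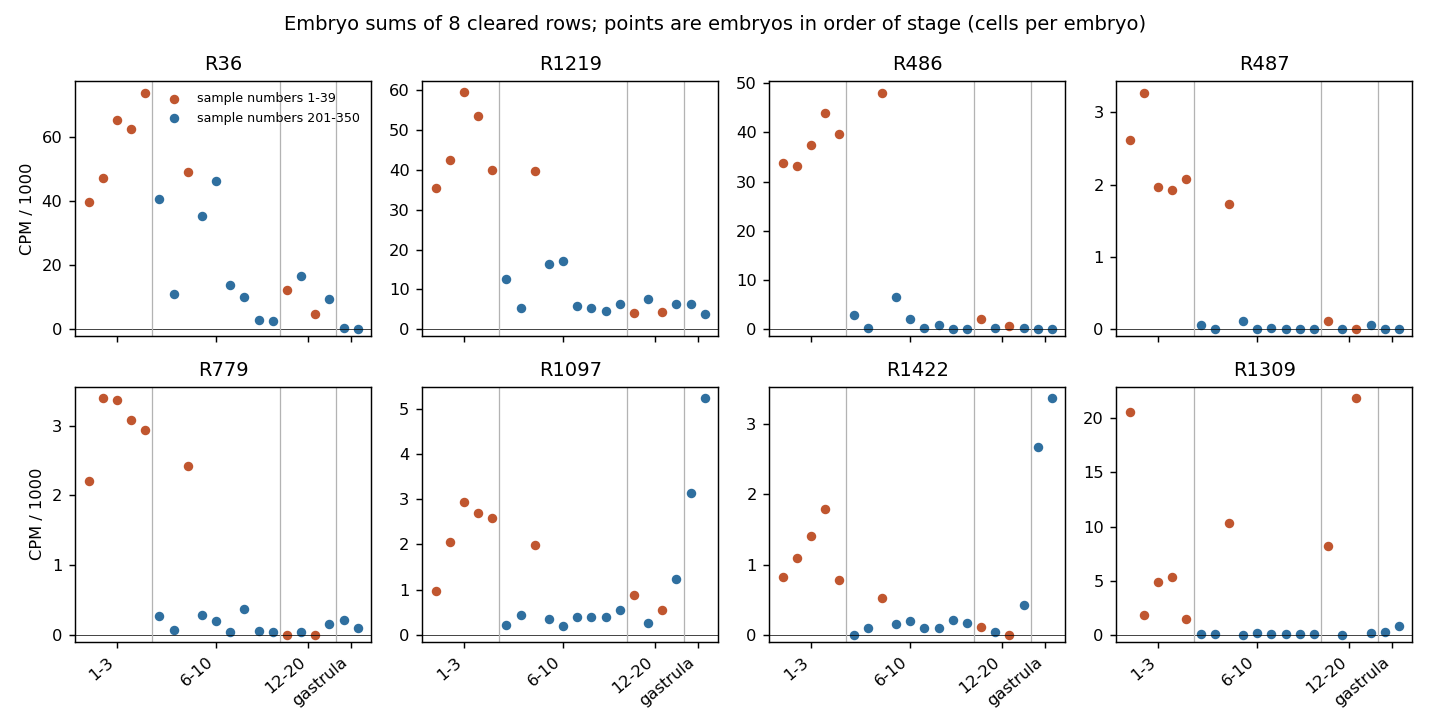
CPM (y axis, in units of 1000 CPM, one scale per panel) of 8 rows in the 20 embryos (points, by stage, grey lines between the groups of 1-3, 6-10, 12-20 cells and gastrula), coloured by number series. R36, R1219, R486, R487, R779 and R1097 of 8-cell embryo 1 lie among or near the 1-3 cell embryos, R1097 and R1422 are highest in gastrula, and R1309 is high in the lower-series embryos of 8, 12 and 14 cells.

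Most rows that 8-cell embryo 1 still held were lower in the next lower-series embryos, but the 8-cell side is a single embryo with no replicate check. This comparison uses held-out embryos within 1 number series, so it is independent of the choice of rows. edgeR's quasi-likelihood test was fitted over all embryos and 604 features, with Benjamini-Hochberg adjustment. The spread is estimated from the groups of more than 1 embryo, so the adjusted p does not separate this embryo from its stage. Of the 99 rows, 44 were called lower in the 12- and 14-cell embryos than in 8-cell embryo 1 (adjusted p under 0.05) and 0 higher. Over all tested features 8.44% were called lower, 20.2% higher and 28.6% in either direction. The median log2 change was -2.75 over the 99 rows and 1.46 over all features, and the median over all features was 1.92 with the other size factors, so the scale has no fixed zero. For 86 of the 99 rows 8-cell embryo 1 lay above both later embryos, which includes all 44 called. That count was not taken over the other early rows. Their median stood at 76.1% of the early level in 8-cell embryo 1 and at 80.1% in the summed 12- and 14-cell embryos. The lone 8-cell embryo is assumed to vary like the others. Without the 14-cell embryo 13 of the 99 rows were called. Without 12-cell embryo 1 it was 37.

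R779 and R137 had the largest fitted differences among the 44. R779 had 0 counts in both the 12- and the 14-cell embryo and 28 counts (2427 CPM) in 8-cell embryo 1, at least 16.2-fold lower against a floor of 3 counts over both (adjusted p = 0.00485, edgeR's quasi-likelihood test). It had 2209 to 3392 CPM in the 1-3 cell embryos, and 42.6 and 150.8 CPM in the 12- and 20-cell embryos of the higher series. R137 had 0 counts in both later embryos and 18 counts (1560 CPM) in 8-cell embryo 1, at least 10.4-fold lower (adjusted p = 0.00811, edgeR's quasi-likelihood test). Without the 14-cell embryo the adjusted p of R137 was 0.0665. Both rows are thinly counted, and the floor sets their folds.

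Among the rows named for other reasons, R1219, R486, R662 and R1416 were also called lower than in that 1 embryo. The log2 change of R1219 was -2.98 (SE 0.70, adjusted p = 0.00411, edgeR's quasi-likelihood test), and it had 4120 and 4238 CPM in the 12- and 14-cell embryos against 39691 CPM in 8-cell embryo 1. That of R486 was -4.89 (SE 1.68, adjusted p = 0.0325). R662 had 1448 and 901.7 CPM in the 12- and 14-cell embryos, against 10833 CPM in 8-cell embryo 1, a log2 change of -2.95 (SE 0.76, adjusted p = 0.00706). R1416 had 111.3 and 0 CPM against 1993 CPM (log2 change -4.99, SE 1.51, adjusted p = 0.0172). R36 did not pass, with 12137 and 4599 CPM against 48878 CPM, a log2 change of -2.30 (SE 1.05, adjusted p = 0.103), and neither did R487 (-4.78, SE 1.91, adjusted p = 0.0624). Both had less in each later embryo than in 8-cell embryo 1. Of the rows chosen by the naming rules under the data processing, R22, R393, R518, R926, R1097, R1422 and R1427 were not called either. Their log2 changes ran from -5.33 (R518) to -0.86 (R22). R1309 was not called and went the other way, with a log2 change of 0.82.

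**Figure D4:**
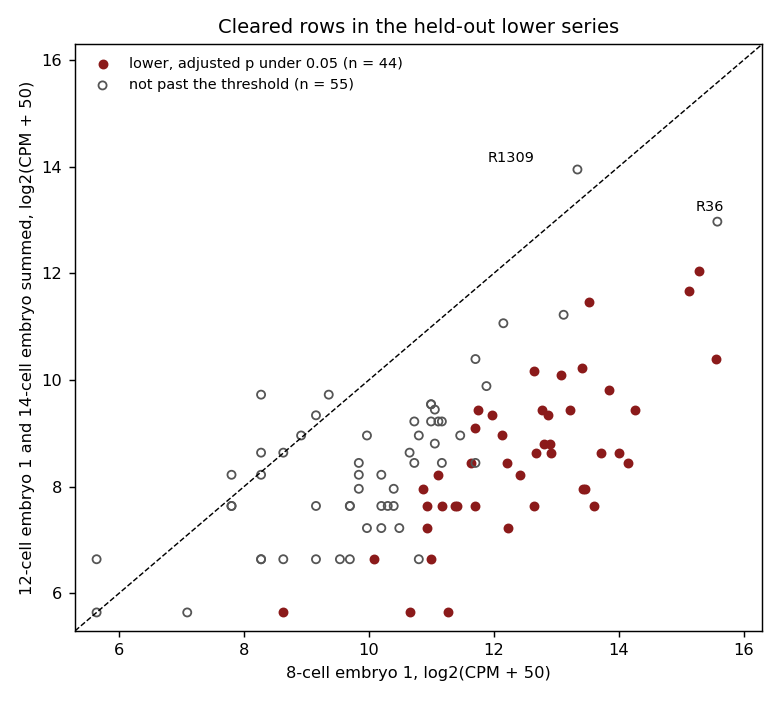
Level of each of the 99 rows in the summed 12- and 14-cell embryos (y axis) against 8-cell embryo 1 (x axis), both as log2(CPM + 50), with the line of equality dashed. The 44 rows called lower (filled) lie below the line, and R1309 lies above it.

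The 17 rows that were already low in 8-cell embryo 1 were, in most cases, also lower in the 3-cell embryo than at 1 and 2 cells. For 15 of these 17 the 3-cell embryo was below both 1-cell embryos and both 2-cell pairs, and the same held for 15 of the other 82 rows. Relative to the summed 1-3 cell level, the median of the 17 was 170.6%, 162.3%, 135.6%, 112.96% and 49.4% in the 2 1-cell embryos, the named and the numbered 2-cell pair and the 3-cell embryo. For the 82 rows it was 84.2%, 87.8%, 96.4%, 102.7% and 104.2%. Both splits share the 1-3 cell level as their denominator and were looked at after the values were seen, so no test is given. Of the 17, R178, R518, R575, R875, R887, R924, R1130, R1187 and R1398 each had at most 3 counts in 8-cell embryo 1. Their levels there lie at the floor. None of the 17 was called in the lower-series comparison, where 11 of the 99 rows had at most 3 counts in 8-cell embryo 1.

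R722, R775, R1130 and R1187 show the pattern, and were picked from the 17 after their values were seen. R722 had 16570.0 and 16596 CPM at 1 cell, 12365 and 6922 CPM in the 2-cell pairs, 2893 CPM in the 3-cell embryo and 867 CPM in 8-cell embryo 1. R775 had 23060 and 10539 CPM at 1 cell, 15315 and 11281 CPM at 2 cells, 1759.5 CPM at 3 cells and 779.96 CPM in 8-cell embryo 1. R1130 had 3176 and 2786 CPM at 1 cell, 2389 and 2051 CPM at 2 cells, 430.1 CPM at 3 cells and 0 counts in 8-cell embryo 1. R1187 had 8837 and 6541 CPM, then 4215 and 3205 CPM, 665 CPM and 259.99 CPM over the same embryos. In each the 3-cell embryo and 8-cell embryo 1 lay below all embryos of 1 and 2 cells. The levels of R722, R775 and R1187 in 8-cell embryo 1 rest on 10, 9 and 3 counts.

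A test of the 2- and 3-cell embryos against the 1-cell embryos, whose order the rule did not use, called none of the 99 rows and 0% of the 558 features tested (edgeR's quasi-likelihood test). At an unadjusted p under 0.05 there were 0 of the 99 rows and 19 features (3.41%), and in DESeq2 2 rows and 24 features (4.36%), with none after adjustment. This contrast places the 3-cell embryo with both 2-cell pairs. The 5 embryos include 1 of 3 cells, so a 3-cell change has no replicate.

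R1309 ran against the rest in one series. It had 20574 and 1817 CPM in the 1-cell embryos, 4918 and 5384 CPM in the 2-cell pairs and 1447 CPM in the 3-cell embryo. In 8-cell embryo 1, 12-cell embryo 1 and the 14-cell embryo of the lower series it had 10313, 8240 and 21821 CPM. In the 8 higher-series embryos of 6 to 10 cells it had at most 200.3 CPM, in 12-cell embryo 2 and the 20-cell embryo 10.6 and 179.5 CPM, and in the gastrulae 305 and 859 CPM. Every lower-series embryo lay above every higher-series embryo. The row had a count in 39 of 39 lower-series libraries and in 82 of 150 higher-series libraries. At 12 to 20 cells it stood at 317% of its 1-3 cell level in the lower series and 2.25% in the higher series. Its clearance by the rule thus moves with number series, and the part of the series in it was not tested. Without R1309 the other 98 rows held 6.98% of the counts of 12-cell embryo 1 and 4.23% of those of the 14-cell embryo.

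**Figure D5:**
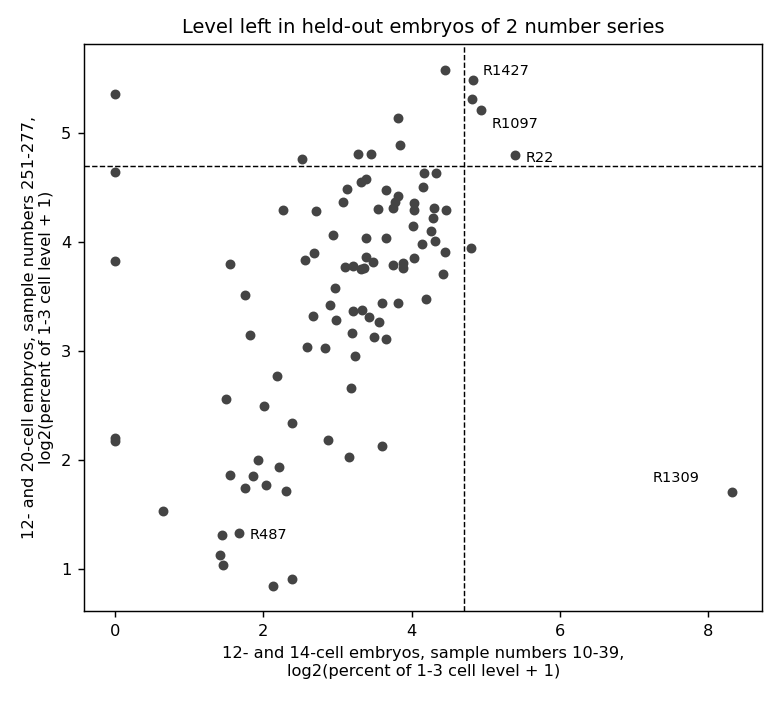
Percent of the 1-3 cell level left in the summed 12- and 14-cell embryos of the lower series (x axis) and the summed 12- and 20-cell embryos of the higher series (y axis) for each of the 99 rows, as log2(percent + 1), with dashed lines at 25%. The lower left field holds 86 rows, and R1309 stands alone at 317% and 2.25%.

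Besides R1309, few rows escaped clearance at 12 to 20 cells. R22, R926, R1097 and R1427 were above 25% of their early level in both series. In the lower series alone R688 and R1309 were, and in the higher series alone 7 rows were, of which R393 had the most left with 46.8%. Over the 4 held-out embryos of 12 to 20 cells R393 and R1427 kept the largest parts of their early level, 44.8% and 42.5%, and R486 and R1416 the smallest, 1.001% and 1.11%. R393 rests on 40 counts at 1 to 3 cells and 2 and 1 counts in the lower-series embryos of 12 and 14 cells. R1427 had 891, 351.4, 541 and 1623 CPM in 12-cell embryos 1 and 2, the 14-cell and the 20-cell embryo, where 1-3 cell embryos ranged from 1090.2 to 3597 CPM, so these groups overlapped.

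Close to the thresholds, the choice between cleared and other rows was narrow. R1427 and R22 were just inside the fold threshold, at 24.3% and 24.2% of the early level in the 8 higher-series embryos, and R790 and R1332 just outside, at 25.0% and 25.3%. R518 and R926, both at 554 CPM, were the members with the lowest early level. R1075 and R1388, at 392.9 and 375.1 CPM, met the fold but lay below 400 CPM.

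In gastrula 3 of the 99 rows were called different from the 12-20 cell embryos, 2 higher and 1 lower. Of 558 tested features 2.15% were higher, 3.94% lower and 6.09% passed in either direction (edgeR's quasi-likelihood test, Benjamini-Hochberg adjusted p under 0.05). The rule used neither group. R1422 rose, with a log2 change of 4.05 (SE 0.82, adjusted p = 0.00307). It had 2679 and 3368 CPM in the early and late gastrula, against 111.3, 42.6, 0 and 430.9 CPM in 12-cell embryos 1 and 2, the 14-cell and the 20-cell embryo. Its gastrula level was 301% of its 1-3 cell level, where it had 782 to 1795 CPM, and both gastrulae lay above all 18 other embryos. R1097 rose by 2.45 (SE 0.66, adjusted p = 0.0226), with 3147 and 5241 CPM in the gastrulae, against 891, 266.2, 541 and 1242 CPM at 12 to 20 cells. R36, described above, fell by 5.33 (SE 1.09, adjusted p = 0.00307), and both gastrulae lay below all 4 embryos of 12 to 20 cells.

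The calls of R36 and R1097 depended on single embryos. Without the late gastrula embryo the adjusted p was 0.198 for R36 and 0.251 for R1097 (edgeR's quasi-likelihood test). Without the early one it was 0.0607 for row 36. For R1097 it was 0.0626 without 12-cell embryo 1 and 0.0705 without the 14-cell embryo. Without the late gastrula embryo 1 of the 99 rows was called, row 1422. DESeq2 called 14 of the 99 rows and 16.2% of 550 features. At an unadjusted p under 0.05 in edgeR there were 20 of the 99 rows and 21.7% of features. These counts were no higher than over all features, with the limit on the spread given above.

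Over all 99 rows the median log2 change into gastrula was -0.08, and over all features tested -0.30, but neither sign was stable. Without the early gastrula embryo the medians were 0.44 and 0.05, and in the higher series alone 0.41 and 0.09. Relative to the higher-series 12- and 20-cell embryos 51 rows were higher in gastrula and 48 at or below. R662 had the highest gastrula CPM among the 99 rows, with 4381 and 6613 CPM in the early and late gastrula against 1448, 607, 901.7 and 2600 CPM at 12 to 20 cells (log2 change 1.92, SE 0.77, adjusted p = 0.130, edgeR's quasi-likelihood test). The gastrulae lay above all 4 earlier embryos, yet the change did not pass. R439, named after its values were seen, was the remaining row above its 1-3 cell level in gastrula, at 113.1% of it.

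Within the early embryos the named sister cells had similar shares of the 99 rows. In the named 2-cell pair the share was 60.6% in P1 (95% exact binomial interval 58.5 to 62.6) and 63.1% in AB (61.7 to 64.5). In the 3-cell embryo it was 58.9% in P1 (58.1 to 59.7), 60.3% in AB1 (58.8 to 61.7) and 61.6% in AB2 (60.4 to 62.7). P1 was the lower in both embryos, by a few percent of counts. Summed per embryo, P1 against AB gave no call among 85 tested members and 0% of the features tested, with 0 at an unadjusted p under 0.05 in edgeR's quasi-likelihood test and 0 calls in DESeq2. With the embryo as a block there were also 0 calls, and 3 of the members and 7 of the features (4.07%) had an unadjusted p under 0.05. With 2 sums against 2, this does not show that the cells were alike.

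R36 was uneven between the 3 cells of the 3-cell embryo. It made up 5.38% of the counts of P1, 12.16% of AB1 and 8.48% of AB2. In the 2-cell pair it made up 6.49% of P1 and 6.56% of AB. The AB and P1 test gave a log2 change of -0.52 (SE 0.39) for this row, with an adjusted p of 0.988 (edgeR's quasi-likelihood test).

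After 6 cells the remaining counts were spread evenly over the libraries of some embryos and concentrated in others. The 4 libraries of the 6-cell embryo had 12.15% to 13.6% and the 10 of the 10-cell embryo 4.02% to 4.82%. In 8-cell embryo 2 the 6 libraries ranged from 5.65% to 32.3%, with a median of 8.91%, and the second highest had 17.4%. In 8-cell embryo 4 they ranged from 4.38% to 22.9% with a median of 6.22%. In 12-cell embryo 2 the libraries of at least 1000 counts ranged from 3.58% to 37.2% with a median of 4.57%. The highest library in each of these 3 embryos had no cell name, so its lineage is not known. Libraries of the gastrulae lay closer together, with 5.55% to 7.54% in the early and 6.57% to 13.9% in the late one.

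In some embryos a single library held a large part of the counts of R36 or R486, though not always the library with the highest share of the 99 rows. In 12-cell embryo 2 the highest library held 762 of the 1548 counts of R36, or 49.2%, while it held 4.49% of the embryo's counts. There R36 alone made up 18.1% of the counts, more than in any 1-3 cell library. In 8-cell embryo 2 the library at 32.3% held 665 of 839 counts of R486, or 79.3%, and 15.4% of the embryo's counts. Of R36, 2703 of 4519 counts in that embryo lay in another, deeper library, which held 34.5% of its counts. By share R36 was similar in both, with 6.13% of the counts of the deeper library and 6.44% in the library at 32.3%. The 20-cell library with the digit 3 in its title held 1107 of 1330 counts of R36, or 83.2%, and 30.8% of the embryo's counts. Of R486, 25 of 42 counts in the 20-cell embryo lay in another library, with 6.80% of its counts. What that digit stands for is not given.

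The cell labelled DP4 in 12-cell embryo 1 held a larger share than the other 9 libraries of that embryo pooled, but not the highest. Of its 1176 counts 16.0% were in the 99 rows (95% exact binomial interval 13.9 to 18.2), against 6.57% in the other 9 libraries pooled. Those 9 ranged from 4.17% to 28.3%, and the highest was a library of 180 counts. R36 had 60 counts in DP4 and 49 in the other 9 libraries together, a ratio of shares of 8.13 (95% exact counting interval 5.48 to 12.1). R479 was chosen after its values were seen, as the row with the most counts in DP4 after R36. It had 30 counts in DP4 and 19 elsewhere, a ratio of 10.5 (5.71 to 19.7). That ratio is partly set by the choice, and the interval does not allow for it. No other of the 99 rows had more than 7 counts in DP4. Over the 99 rows, 49 were higher in DP4, 44 lower and 6 uncounted in this embryo, and 7 had an interval above 1 and 1, R1309, an interval below 1. Among the other early rows, 55 were higher and 80 lower, and 5 had an interval above 1 and 6 below 1. This is 1 cell, so there is no replicate, and the meaning of the name DP4 is not given.

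The cell labelled P4 in the 14-cell embryo could not be read in the same way. It had 27 counts outside the dominant rows, 11 of them in the 99 rows, or 40.7% (22.4 to 61.2), and 7 of the 11 were row 1309. Other shallow libraries of that embryo were similar, since 35 of 38 member counts in a library of 62 counts and 77 of the member counts in one of 488 counts were row 1309. The 5 libraries of the 14-cell embryo with at least 1000 counts had 3.90% to 5.88%.

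More of the 99 rows were seen per blastomere at 1 to 3 cells and in 8-cell embryo 1 than in the other embryos. Between the 1-3 cell and the higher-series 6-10 cell embryos this restates the rule, which chose the rows by those values. At a depth of 1000 counts per library, the expected number of rows with a count had embryo medians of 81.6 to 88.4 at 1 to 3 cells and 73.3 in 8-cell embryo 1. It was 25.6 to 39.4 in the other 6-10 cell embryos, 23.6 to 37.4 at 12 to 20 cells and 32.3 and 37.9 in the early and late gastrula. Without thinning the medians for the gastrulae were 59 and 75.5, and 94 to 99 at 1 to 3 cells. Over all features at 1000 counts the medians were 193.2 to 213.1 at 1 to 3 cells and 208.8 in 8-cell embryo 1. They were 271.4 to 301.6 in the other 6-10 cell embryos, 252.9 to 292.2 at 12 to 20 cells and 247.5 and 267.9 in the gastrulae. Shallower libraries were left out, 3 of 8-cell embryo 1, 2 of 8-cell embryo 3, 6 and 1 of 12-cell embryos 1 and 2, 8 of the 14-cell and 4 of the 20-cell embryo.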

How the data were processed

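The authors deposited raw counts as whole numbers, 1 column per blastomere and 1 row per feature. Per the submitters' processing notes, which assign no steps to them, the tools were CASAVA 1.8, Bowtie2 2.1.0 and HTSeq 0.5.4p3. Neither the genome build nor the kind of count (reads or distinct molecules) is stated in these sources. The copy used holds 1572 complete rows, and its last row broke off part way, so totals are of the rows used and not library depths. A deposited list of 24249 gene models could not be paired with rows.

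Counts were summed per embryo, the replicate. The numbered 2-cell pair was treated as a single embryo, an assumption the labels leave unstated. No pair of libraries held identical values. Whether embryos came from separate cultures is not given, so the p-values reflect variation among the 20 embryos used, which may be technical. Tests used edgeR 4.0.16 (quasi-likelihood, TMM scaling, filterByExpr) in R 4.3.3 with Benjamini-Hochberg adjustment over all features tested and a threshold of 0.05. DESeq2 1.42.0, RLE factors, no filter, keeping the dominant rows, libraries of at least 1000 counts, other thresholds of the rule and leaving out embryos were alternatives. The fits were also run on simulated counts with large known changes, the same spread for every feature and no effect of number series. That run checks the code and does not show how sure the calls are. AB and P1 of a pair come from the same embryo. The deviations of same-embryo sums correlated at 0.472 over the features tested, and the embryo was a block in an alternative.

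The members, tests and lists were chosen with earlier results of these data known. Rows named are the 2 with the highest early CPM, the 2 lowest ratios of 6-10 to 1-3 cell CPM above 1000 CPM early, the 2 highest and 2 lowest ratios at 12 to 20 cells, those next to the thresholds, the 2 largest rises and falls called in each test, and the 2 highest in gastrula. Others are named as chosen after their values were seen.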

Additional observations from a re-analysis of the deposited data

Results flagged for a closer look

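The values here belong to an embryo that lay far from the others of its group, with a gap to the nearest one that was a large part of the group's range. Of 51 sets looked at (the share of counts and 16 named rows in 3 groups of embryos), 17 had such an embryo, where chance alone gives about 1 in 20. The sets share embryos and are not independent. The rows were chosen for low levels in the remaining 8 embryos of that group, and R779 and R137 were named for high levels in 8-cell embryo 1, so the distance of that embryo is partly set by the choice and that rate does not apply to it.

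In the 6-10 cell group 8-cell embryo 1 was the distant one in 14 of the 17 sets. Its share of counts in the 99 rows was 52.8%, against 4.35% to 14.1% in the other 8 embryos. It had 48011 CPM of R486 (against 55.3 to 6558), 39691 CPM of R1219 (4553 to 17228) and 10833 CPM of R662 (633 to 1438). It had 10313 CPM of R1309 (31.3 to 200.3), 4506 CPM of R22 (813 to 1467) and 2427 CPM of R779 (35.2 to 369.1). R1097 and R1416 were both at 1993 CPM (200.3 to 559.02 and 16.6 to 289.2). R487 was at 1733 CPM (0 to 109.4), R137 at 1560 CPM (11.1 to 200.3), R926 at 1299.9 CPM (0 to 199.7), R393 at 779.96 CPM (68.9 to 326) and R1422 at 519.98 CPM (0 to 216). This embryo is the lone one of its group in the lower number series, so the embryo and the series cannot be told apart here.

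In the same group 8-cell embryo 3 had 200.3 CPM of R518, which is 1 count, against 5.53 to 86.7 CPM. Among the 1-3 cell embryos, 1-cell embryo 1 had 138.1 CPM of R137, again 1 count, against 727 to 897 CPM. The same embryo had 20574 CPM of R1309, against 1447 to 5384 CPM.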

How the results depend on the processing

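The median log2 change into gastrula, which was -0.08 over the members and -0.30 over all features, changed sign under several settings. It was 0.37 and 0.18 without the filter and 0.41 and 0.089 in the higher series alone. The members' median alone changed sign with the 6 dominant rows kept (0.18) and with number series as a term (0.17). Leaving out 1 embryo at a time gave -0.13 to 0.44 over the members and -0.40 to 0.053 over all features, and the cause was not tested. No other result reversed under the alternatives run. Between gastrula and 12-20 cell embryos 34 of 558 features were called (6.09%), against 89 with DESeq2 (16.2%, with 20 higher and 69 lower), 81 without the filter (5.92% of more features tested) and 59 with number series as a term (10.6%). Counts were 14, 11 and 6 for the members, against 3. Leaving out 1 embryo at a time gave 1.10% to 12.0% of features (6 to 60) and 1 to 4 members, with the highest percent without the 20-cell embryo and the lowest without the late gastrula embryo. In the lower-series comparison 28.6% of features were called, against 12.0% without the filter, where more features were tested, and 13.9% to 16.5% without 1 of the embryos, with 13 to 37 members, against 44. The other settings gave 32 to 51 members, and 12 members were called in all of them. Leaving out 8-cell embryo 1 leaves no group to test. Between 2-3 and 1-cell embryos 1 feature (0.0730%) was called without the filter, against 0. With the embryo as a replicate block, P1 against AB gave 0 called features and 0 called members. There, leaving out an embryo leaves 1 sum against 1 with no residual degrees of freedom, so 1 sum was left out at a time, with 0 calls. The rule gave 50 members with a ratio of at most 1/8. The counts at or below 25% of the early level stayed within 1.5 times, at 17 to 25 for 8-cell embryo 1, 89 to 98 and 67 to 96 for the 12-20 cell embryos of the lower and higher series, and 56 to 81 in gastrula. Leaving out each of these embryos and leaving out R1309 were settings chosen after seeing the data. With the 6 dominant rows in the totals the share of the 99 rows was 1.95% and 1.35% in the 12- and 14-cell embryos of the lower series. Depth limits the lower-series embryos of 12 and 14 cells, where a floor of 3 counts over both is 149.5 CPM.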
